A study of Rattus norvegicus with 4 samples.

Results

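The genes described here encode the synaptic vesicle and its release machinery. They were taken from a list of 40 gene symbols, and a gene counted as measured when at least 1 probe set carried that symbol and no other in the platform annotation. Of the 40, 39 were measured among 14217 singly named genes in all, and Doc2a, a calcium-binding exocytosis protein, was not analysed here. Where a gene had several probe sets, the one with the highest mean intensity over the arrays was used. Of the 39 genes, 32 had a mean intensity above 62.75, the median over probe sets other than controls, as had 9489 genes in all. Counts and medians of release genes on the arrays below cover these 32. The promoter counts cover instead the 31 genes with a matched promoter, whether or not they passed the filter.

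The RNA came from the CA3 area of the hippocampus of Sprague-Dawley rats, removed 24 h after injection into the hippocampus. The injections were kainic acid with the peptide NAP (KA+NAP), kainic acid alone (KA), NAP alone (NAP) and the PBS vehicle (PBS). Kainic acid is an agonist of kainate-type glutamate receptors that causes seizures and excitotoxic injury, and NAP is a peptide derived from the protein ADNP. Each group had 1 array, and the labels give neither an age nor the number of animals behind an array, so no value below has a replicate error and no test between groups was made. The labels place the tissue in CA3 in the design text and speak of whole hippocampi in the protocol. All differences are in log2(intensity + 10), and genes are counted as 2-fold apart by size alone. KA+NAP minus NAP and KA minus PBS share no array, whereas each of the other differences shares an array with both of them.

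As background, synaptic vesicles are filled with transmitter, tethered at the active zone, primed, and fused with the plasma membrane when calcium enters the terminal. Fusion is driven by the SNARE proteins on the vesicle and on the plasma membrane, is timed by synaptotagmins and complexins, and is followed by clathrin-dependent retrieval of the membrane. CA3 is the hippocampal field where mossy fibre terminals of dentate granule cells meet pyramidal neurons that are rich in kainate receptors and are known to be vulnerable to kainic acid.

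The promoters of 6 release genes are shown because these genes show how the 2 KA differences diverged between release genes. Sh3gl2, Syt1 and Synpr were the lowest in KA+NAP minus NAP, Vamp2 and Sv2b were the lowest in KA minus PBS, and Syn1 was close to the same size in both. The sequences are the 250 bases before the annotated start in RefSeq on GRCr8, read 5′ to 3′ on the strand of the gene. Capitals mark a cyclic AMP response element (TGACGTCA) or an Egr element (GCGGGGGCG), each searched on both strands. The windows lie at chr5:104699020-104699269 (plus strand) for Sh3gl2, chr7:46244214-46244463 (minus) for Syt1, chr15:14182358-14182607 (minus) for Synpr, chr10:54292539-54292788 (plus) for Vamp2, chr1:138562259-138562508 (minus) for Sv2b and chrX:3725495-3725744 (plus) for Syn1.
Sh3gl2: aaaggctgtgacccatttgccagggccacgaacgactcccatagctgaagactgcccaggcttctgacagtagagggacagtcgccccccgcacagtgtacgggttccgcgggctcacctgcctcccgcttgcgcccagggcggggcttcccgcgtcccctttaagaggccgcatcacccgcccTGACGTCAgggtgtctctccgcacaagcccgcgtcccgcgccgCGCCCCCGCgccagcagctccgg
Syt1: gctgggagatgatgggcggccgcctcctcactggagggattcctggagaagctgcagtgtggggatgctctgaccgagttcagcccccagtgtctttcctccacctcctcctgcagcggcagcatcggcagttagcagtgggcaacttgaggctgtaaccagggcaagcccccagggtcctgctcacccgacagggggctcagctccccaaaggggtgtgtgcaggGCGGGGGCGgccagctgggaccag
Synpr: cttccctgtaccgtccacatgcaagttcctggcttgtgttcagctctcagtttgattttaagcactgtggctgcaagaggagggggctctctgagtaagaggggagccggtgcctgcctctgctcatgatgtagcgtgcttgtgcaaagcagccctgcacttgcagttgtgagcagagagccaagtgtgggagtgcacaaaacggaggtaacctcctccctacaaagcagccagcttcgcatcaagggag
Vamp2: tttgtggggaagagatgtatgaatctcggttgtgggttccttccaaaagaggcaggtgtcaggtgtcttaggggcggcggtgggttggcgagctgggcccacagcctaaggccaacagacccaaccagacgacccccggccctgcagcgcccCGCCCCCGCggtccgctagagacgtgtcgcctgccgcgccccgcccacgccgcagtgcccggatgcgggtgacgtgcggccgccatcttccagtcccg
Sv2b: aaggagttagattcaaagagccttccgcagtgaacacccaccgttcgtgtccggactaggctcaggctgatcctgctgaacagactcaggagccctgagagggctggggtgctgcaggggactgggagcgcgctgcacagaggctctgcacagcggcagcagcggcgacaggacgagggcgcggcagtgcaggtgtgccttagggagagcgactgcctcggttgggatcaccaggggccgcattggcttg
Syn1: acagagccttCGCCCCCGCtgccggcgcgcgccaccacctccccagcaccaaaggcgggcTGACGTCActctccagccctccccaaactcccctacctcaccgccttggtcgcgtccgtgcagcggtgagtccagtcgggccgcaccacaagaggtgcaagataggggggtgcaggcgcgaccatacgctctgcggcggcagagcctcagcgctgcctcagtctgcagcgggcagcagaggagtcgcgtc

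RefSeq promoters were matched for 31 of the 40 symbols. An Egr element was found in 7 of these 31 windows (22.6%), those of Syn2, Sh3gl2, Syt1, Vamp2, Nsf, Syn1 and Syp, against 2.45% of all 33469 windows. A cyclic AMP response element was found in 3 (9.68%), those of Vamp1, Sh3gl2 and Syn1, against 1.59% of all windows. No member window held the AP-1 element TGANTCA (6.34% of all windows) or the TATA box TATAAA (12.9% of all windows). The member windows were richer in G and C, with a median of 64.8% against 51.2% over all windows. Both kinds of element occurred among genes that behaved differently on the arrays. Sh3gl2, low on both arrays with kainic acid, had the cyclic AMP element starting 66 bases and the Egr element starting 23 bases before the start, and Syn1, with differences of −0.23 in KA+NAP minus NAP and −0.29 in KA minus PBS, had them at 190 and 240 bases. A match of letters is a description and not a bound site.

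On the arrays as a whole, median intensities lay between 58 and 65. No measured marker of CA3, CA1, dentate, interneurons, glia, vessels or blood was at 0 on any array. The 12 measured CA3 pyramidal markers summed to an intensity of 10706 on the KA+NAP array, 13335 on the KA array, 14985 on the NAP array and 16666 on the PBS array. Markers of neighbouring fields did not follow that order. The 7 CA1 pyramidal markers summed to 3118 on the KA+NAP array, 1397 on the KA array, 2453 on the NAP array and 3488 on the PBS array, and the 6 dentate granule cell markers to 3351, 5084, 5338 and 4241 on the same arrays in that order. Of 12 microglia and macrophage markers past the filter, 11 lay above 0 in KA+NAP minus NAP and 8 in KA minus PBS, with medians of 0.82 and 0.13. P2ry12, a receptor of resting microglia, was the 1 marker at least 2-fold lower, at −1.05 and −2.16. All 13 measured markers, P2ry12 among them, summed to 4861, 2468, 3346 and 3288 on the KA+NAP, KA, NAP and PBS arrays. The arrays stood far apart in blood markers, with the haemoglobin gene Hbb at 1549 on the KA+NAP array, 186 on the KA array, 1430 on the NAP array and 5 on the PBS array. The part of blood RNA in the values of the release genes was not tested. In tissue RNA of this kind, fewer neurons and less of a transcript per neuron cannot be told apart.

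Most release genes were lower on the arrays with kainic acid, and most of these differences were under 2-fold. In KA+NAP minus NAP, 30 of the 32 lay below 0, against 47.3% of all genes past the filter, with a median of −0.51 against 0.03 over all genes. There, 3 were at least 2-fold lower (Sh3gl2, Syt1 and Synpr), against 2.41% of all genes, and none was at least 2-fold higher, against 5.66%. In KA minus PBS, 26 of the 32 lay below 0, against 47.2% of all genes, and the median was −0.34 against 0.02. None was at least 2-fold lower, against 2.39% of all genes, and none was at least 2-fold higher, against 4.91%. Below 0 in both were 24 of the 32, against 32.9% of all genes, and 7 had opposite signs (Stx1a, Syt1, Syt11, Synpr, Rab3c, Snap91 and Sv2a), against 28.1%. Some of these signs rest on values near 0, in KA+NAP minus NAP for Sv2a (0.03) and in KA minus PBS for Syt1 (0.01) and Snap91 (0.01). For 23 of the 32 genes both arrays with kainic acid lay below both arrays without it, which held for 28.7% of all genes.

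The lowest release genes in the 2 differences were not the same. Sh3gl2 (−1.57) and Syt1 (−1.02) were the lowest in KA+NAP minus NAP, and their KA minus PBS differences were −0.60 and 0.01. Vamp2 and Sv2b had KA+NAP minus NAP differences of −0.05 and −0.26 and were the lowest in KA minus PBS, both at −0.92. Across the 32 release genes the 2 differences correlated at Pearson r = −0.21 and Spearman rho = −0.21, whereas across all 9489 genes the values were 0.70 and 0.61. The release genes spanned −0.92 to 0.46 in KA minus PBS and all genes −3.48 to 6.86, so the correlations cover unlike ranges. These correlations are across genes, which are not independent replicates, and every gene shares the same 4 arrays. The KA+NAP array was the lowest of the 4 for 21 release genes (26.3% of all genes) and the KA array for 9 (23.8% of all genes). The NAP array was the lowest for none, against 20.1% of all genes, and the PBS array for 2, Syt11 and Rab3c, against 29.8%.

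**Figure D1:**
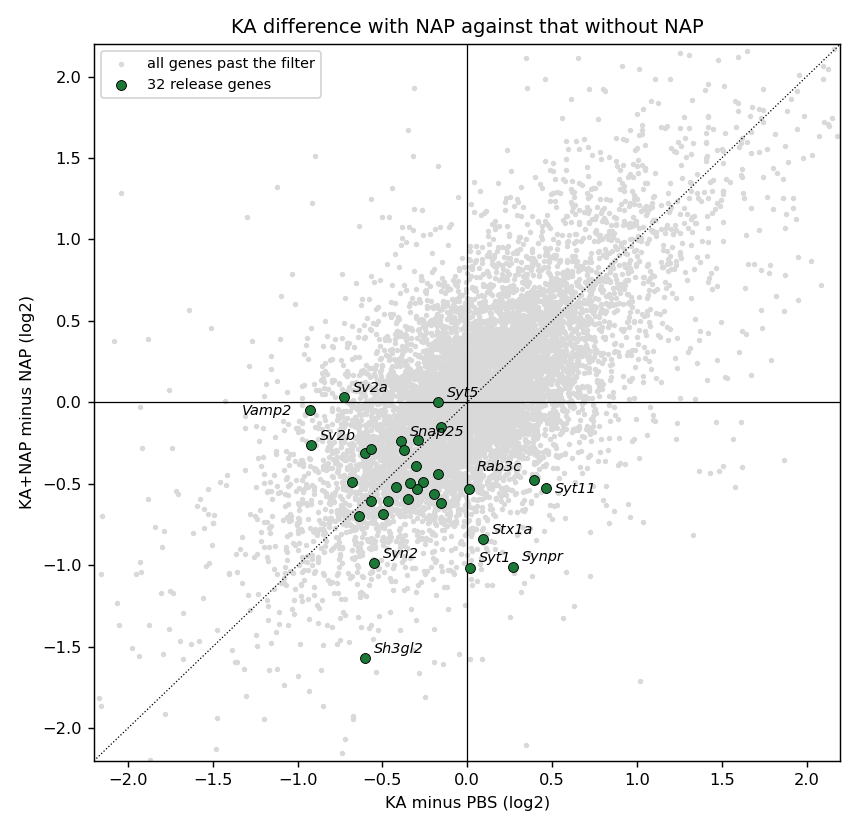
The KA+NAP minus NAP difference (vertical axis, log2) is plotted against the KA minus PBS difference (horizontal axis, log2), with the 32 release genes in green and all genes past the filter in grey. The dotted line marks equal differences, and 115 genes lie outside the axes. Of the release genes, 24 lie below 0 on both axes. Sv2a lies just above 0 on the vertical axis at the left, and Synpr, Syt11 and Rab3c lie right of 0 on the horizontal axis.

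Among the SNARE proteins, all 4 genes passed the filter and their values diverged. Vamp2, the main vesicle SNARE of forebrain synapses, had an intensity of 1217 on the KA+NAP array, 1021 on the KA array, 1257 on the NAP array and 1947 on the PBS array. The PBS array stood alone at the top for this gene, and the NAP array was level with KA+NAP. Vamp2 was thus 1.03-fold lower in KA+NAP minus NAP and 1.90-fold lower in KA minus PBS. Stx1a, a plasma membrane SNARE, had a different order, with 177 on the KA+NAP array, 292 on the KA array, 325 on the NAP array and 273 on the PBS array. At this probe set the KA+NAP array alone was low, 1.79-fold below the NAP array. The other Stx1a probe set, with a mean of 62.75 at the filter, had 34, 49, 91 and 77 in the same order of arrays. There both arrays with kainic acid were the lower ones, and KA minus PBS was −0.56. Snap25, the other plasma membrane SNARE, had 7031 on the KA+NAP array, 6904 on the KA array, 8295 on the NAP array and 9045 on the PBS array. The groups with and without kainic acid did not overlap for Snap25, and its differences were −0.24 with and −0.39 without NAP. Vamp1, a vesicle SNARE related to Vamp2, had 1082, 1122, 1328 and 1454 on the KA+NAP, KA, NAP and PBS arrays. Again both arrays with kainic acid were the lower ones at this probe set. A dimmer Vamp1 probe set past the filter had 109, 184, 207 and 183 in that order, with the KA and PBS arrays level.

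**Figure D2:**
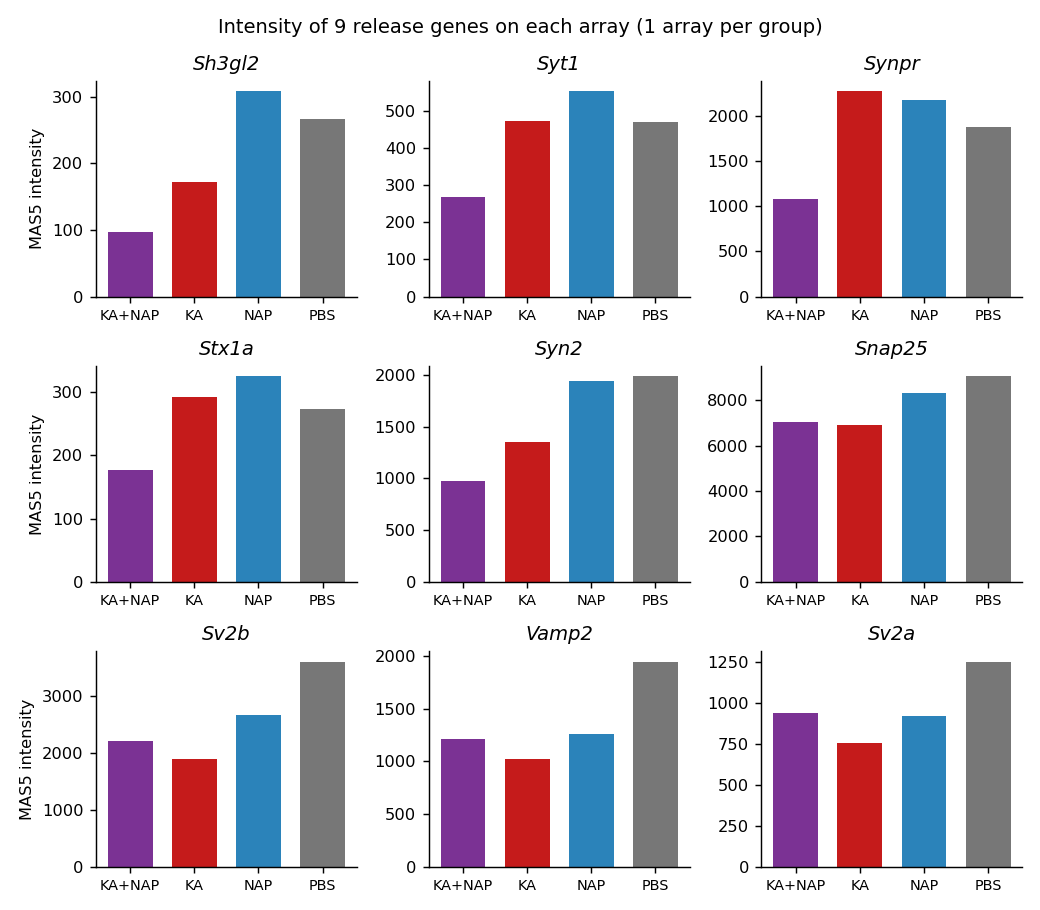
Bars give the MAS5 intensity (linear scale from 0, a separate vertical axis for each gene) of 9 release genes on the KA+NAP, KA, NAP and PBS arrays, 1 array per group. For Sh3gl2, Syt1, Synpr, Stx1a and Syn2 the KA+NAP bar is the lowest, whereas for Sv2b, Vamp2 and Sv2a the KA bar is the lowest and the PBS bar stands above the other 3. The values of Snap25 with kainic acid are 7031 and 6904, and both lie under those without it.

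All 4 genes that regulate or take apart the SNARE complex lay below 0 in both KA differences, with medians of −0.53 in KA+NAP minus NAP and −0.31 in KA minus PBS. Cplx2, a complexin that binds the assembled SNARE complex, had 1161 on the KA+NAP array, 942 on the KA array, 1636 on the NAP array and 1513 on the PBS array. Nsf, the ATPase that takes the complex apart after fusion, had 3020, 3233, 4557 and 4128 on the KA+NAP, KA, NAP and PBS arrays. At these probe sets both genes had both arrays with kainic acid under both without. The other Nsf probe sets were at −0.10 and 0.36 in KA minus PBS, and averaging all probe sets of Nsf gave −0.03. Cplx1, the second complexin, was at −0.49 in KA+NAP minus NAP and −0.26 in KA minus PBS. Napb, the neuronal SNAP adaptor of Nsf, was at −0.56 and −0.20 in that order.

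Of the 4 synaptotagmins past the filter, 3 lay below 0 in KA+NAP minus NAP and 2 in KA minus PBS, with medians of −0.34 and −0.07. Syt1, the sensor for fast synchronous release, had 269 on the KA+NAP array, 475 on the KA array, 554 on the NAP array and 470 on the PBS array. The KA and PBS arrays were level and only the KA+NAP array was low. Syt4, an activity-inducible synaptotagmin, had 2314 on the KA+NAP array, 2512 on the KA array, 2575 on the NAP array and 2802 on the PBS array. At this probe set its KA differences of −0.15 with and −0.16 without NAP were nearly the same. A dimmer Syt4 probe set past the filter had 72, 88, 110 and 73 on the KA+NAP, KA, NAP and PBS arrays. There the KA differences were unlike, at −0.55 with and 0.24 without NAP. Syt5, another synaptotagmin, had 365 on the KA+NAP array, 348 on the KA array, 365 on the NAP array and 394 on the PBS array, the narrowest spread of the 32 genes relative to its level. Syt11, a synaptotagmin that does not bind calcium, had 72 on the KA+NAP array, 99 on the KA array, 108 on the NAP array and 69 on the PBS array. The KA+NAP and PBS arrays were low for Syt11 and the other two were high, so its KA difference was −0.53 with and 0.46 without NAP.

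Vesicle membrane proteins spread widely in how the 2 KA differences compared. Sv2b, a transporter-like glycoprotein of the vesicle, had 2219 on the KA+NAP array, 1903 on the KA array, 2666 on the NAP array and 3607 on the PBS array. Its relative Sv2a, the binding site of the antiseizure drug levetiracetam, had 939 on the KA+NAP array, 754 on the KA array, 919 on the NAP array and 1252 on the PBS array. Like Vamp2, both were highest on the PBS array and lowest on the KA array, and in NAP minus PBS they were at −0.43 (Sv2b) and −0.44 (Sv2a). The CA1 pyramidal marker sum was also highest on the PBS array (3488) and lowest on the KA array (1397). Of the single CA1 markers past the filter, Wfs1, Fibcd1 and Mpped1 had that pattern. Pou3f1 (450) and Man1a1 (1024) were highest on the KA+NAP array and Ccn3 (459) on the NAP array. The part of CA1 RNA in the values of Sv2b, Sv2a and Vamp2 was not tested.

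Synpr encodes synaptoporin, a synaptophysin relative known from mossy fibre terminals, and was the release gene with the largest contrast between the 2 KA differences. It had 1075 on the KA+NAP array, 2270 on the KA array, 2174 on the NAP array and 1878 on the PBS array. The KA+NAP array stood well below the other 3, and the KA array was the highest. Synpr was thus at −1.01 in KA+NAP minus NAP, 0.27 in KA minus PBS and −1.07 in KA+NAP minus KA. The dentate granule cell marker sum was likewise lowest on the KA+NAP array, at 3351 against 5084 on the KA array. Single dentate markers were mixed in this comparison. Calb1 (1198 on the KA+NAP array against 1901 on the KA array) and Stxbp6 (1355 against 2383) were lower. Prox1 was level (747 against 753), and Dsp, below the filter, was higher (36 against 25). The part of dentate RNA in the value of Synpr was not tested. Syp (synaptophysin), an abundant vesicle protein of unsettled function, had 1528 on the KA+NAP array, 1668 on the KA array, 2005 on the NAP array and 2062 on the PBS array, so both arrays with kainic acid were low. Syngr3, a synaptogyrin, followed the same order with 1180, 1339, 1696 and 1792.

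Synapsins coat vesicles and tether them in the reserve pool. Syn2 had 978 on the KA+NAP array, 1353 on the KA array, 1948 on the NAP array and 1988 on the PBS array. At this probe set the arrays without kainic acid were level, the KA+NAP array was 1.98-fold below NAP, just short of 2-fold, and KA minus PBS was −0.55. The dimmer Syn2 probe sets past the filter were at −0.94 and −1.05 in KA+NAP minus NAP and −0.16 and −0.13 in KA minus PBS. In NAP minus PBS they were at 0.22 and 0.25. Syn1 had 535 on the KA+NAP array, 503 on the KA array, 630 on the NAP array and 617 on the PBS array. Both synapsins had both arrays with kainic acid below both without. At the brightest probe sets the step was smaller for Syn1 (−0.23 with and −0.29 without NAP).

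**Figure D3:**
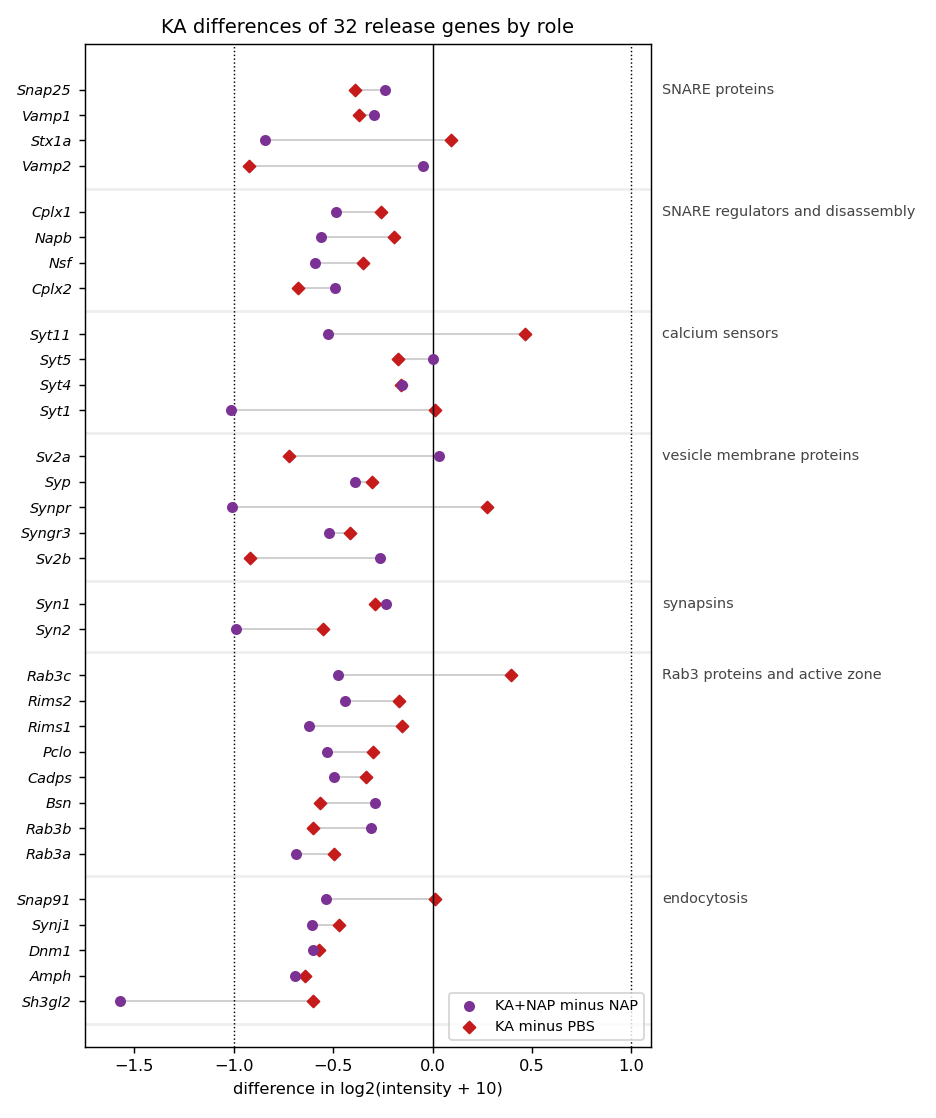
Each row is 1 of the 32 release genes, grouped by role, with the KA+NAP minus NAP difference as a circle and the KA minus PBS difference as a diamond on the axis of log2(intensity + 10). Dotted lines mark 2-fold. The group labelled calcium sensors includes Syt11, which does not bind calcium. The SNARE regulators keep both marks between −0.68 and −0.20, and Sh3gl2 at −1.57 is the farthest mark from 0.

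Of the 10 genes of the Rab3 and active zone group, 8 passed the filter, and all 8 lay below 0 in KA+NAP minus NAP and 7 in KA minus PBS. Rab3a, the main vesicle GTPase of this family, had 1316 on the KA+NAP array, 1628 on the KA array, 2126 on the NAP array and 2297 on the PBS array. Its close relatives behaved differently. Rab3b had 193 on the KA+NAP array, 119 on the KA array, 242 on the NAP array and 186 on the PBS array, and it had the highest KA+NAP minus KA difference of the 32 genes, 0.65. Rab3c had 105 on the KA+NAP array, 132 on the KA array, 150 on the NAP array and 98 on the PBS array, and was at −0.48 with and 0.39 without NAP. Bsn (bassoon), a giant scaffold of the active zone, had 3343 on the KA+NAP array, 3032 on the KA array, 4085 on the NAP array and 4494 on the PBS array. Cadps, a vesicle priming factor, had 2455, 3067, 3469 and 3877 on the KA+NAP, KA, NAP and PBS arrays. Both genes separated the arrays with kainic acid from those without. The scaffolds Pclo (piccolo), Rims1 and Rims2 were dim, with intensities between 52 and 139 on all arrays, and their differences lay between −0.62 and −0.44 with NAP and between −0.30 and −0.15 without NAP.

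The 5 endocytosis genes had medians of −0.61 in KA+NAP minus NAP and −0.57 in KA minus PBS. Sh3gl2 encodes endophilin A1, which bends the membrane of the bud and recruits dynamin and synaptojanin. It had 97 on the KA+NAP array, 172 on the KA array, 308 on the NAP array and 266 on the PBS array. Both arrays with kainic acid were low and the KA+NAP array was the lowest, 2.97-fold below NAP, which placed Sh3gl2 48th lowest of the 9489 genes in that difference. Its other probe set was below the filter, with 9, 13, 6 and 16 on the KA+NAP, KA, NAP and PBS arrays, and averaging both gave −0.66 in KA+NAP minus NAP. Dnm1 (dynamin 1), the GTPase that cuts the bud from the membrane, had 3486 on the KA+NAP array, 3500 on the KA array, 5303 on the NAP array and 5198 on the PBS array. Within each pair the values were level, so the kainic acid step was the same with and without NAP, at −0.60 and −0.57. Amph (amphiphysin), a partner of dynamin, had 142 on the KA+NAP array, 185 on the KA array, 236 on the NAP array and 294 on the PBS array. Synj1 (synaptojanin 1), a lipid phosphatase that helps to uncoat vesicles, had 2266, 2670, 3452 and 3698 on the KA+NAP, KA, NAP and PBS arrays. For both, the arrays with kainic acid were again the lower ones. Snap91 (AP180), a clathrin adaptor, was the exception, with 3880 on the KA+NAP array, 5024 on the KA array, 5622 on the NAP array and 4983 on the PBS array, so the KA and PBS arrays were level.

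The remaining 7 measured genes had a mean intensity at or below the filter and are not counted above. They were the sensors Syt2 and Syt7, the vesicle proteins Sv2c and Syngr1, the synapsin Syn3, the Rab3 effector Rph3a and the priming factor Unc13a. Their intensities ran from 1 to 62 over the 4 arrays. Syngr1, at a mean of 45.0, lay nearest under the threshold, and Rims2, at 64.75, nearest above it. No order of arrays is read from these dim genes.

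Second probe sets were available as a further look at the same transcripts. 9 release genes had more than 1 probe set past the filter, with 11 probe sets besides the brightest. In KA+NAP minus NAP all 11 lay below 0, with a median of −0.87 against −0.49 for the brightest ones. Of the 11, 1 each of Nsf, Rab3a, Syn2 and Synpr reached 2-fold. Among all genes, at their brightest probe sets, 2.41% were at least 2-fold lower. In KA minus PBS, 7 of the 11 lay below 0, with a median of −0.10 against −0.35. The second probe set of Rab3a had 289 on the KA+NAP array, 628 on the KA array, 797 on the NAP array and 667 on the PBS array, and the second one of Synpr had 240, 699, 594 and 353. Both probe sets thus put the KA+NAP array lowest. For Synpr the second probe set had a KA minus PBS difference of 0.97. Probe sets differed in sign for Nsf, Syt4 and Vamp1 in KA minus PBS, for Rab3a, Syn2, Syt4 and Vamp1 in NAP minus PBS, for Sv2b in KA+NAP minus KA, and for no gene in KA+NAP minus NAP. Over all 2080 genes that had further probe sets above the filter, these had medians of 0 in KA+NAP minus NAP and 0.066 in KA minus PBS, against −0.034 and −0.027 for the brightest ones. Of these 2669 further probe sets, 49.2% lay below 0 in KA+NAP minus NAP and 44.3% in KA minus PBS. For the beta-actin controls the 3′ to 5′ ratio was 15.5 on the KA+NAP array, 11.4 on the KA array, 7.92 on the NAP array and 14.1 on the PBS array. The GAPDH ratio was 1.56, 1.31, 1.40 and 1.45 and the hexokinase ratio 5.50, 6.68, 6.05 and 8 on the KA+NAP, KA, NAP and PBS arrays, so the 3 controls ordered the arrays differently. Their part in the gap between probe sets was not tested.

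**Figure D4:**
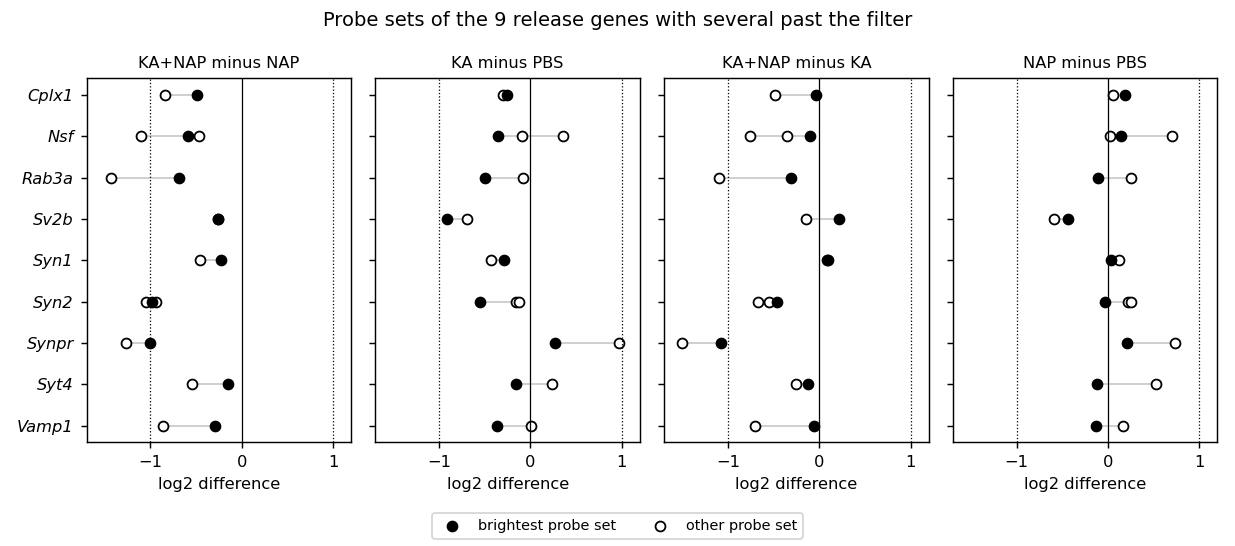
For the 9 release genes that had more than 1 probe set above the filter, filled circles give the brightest probe set and open circles the others, in each of 4 differences of log2(intensity + 10). Dotted lines mark 2-fold. In KA+NAP minus NAP every circle lies below 0, with the second probe set of Rab3a at −1.43 the lowest, whereas in KA minus PBS the open circles reach 0.97 for Synpr.

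The peptide was compared within each condition. In KA+NAP minus KA, 23 of the 32 release genes lay below 0, against 45.4% of all genes, with a median of −0.15 against 0.03. Synpr was the 1 gene at least 2-fold lower, against 0.601% of all genes, and none was at least 2-fold higher, against 1.52%. Below it came Syt1 at −0.80, Sh3gl2 at −0.77 and Stx1a at −0.69, and at the other end Rab3b was at 0.65, Sv2a at 0.31, Cplx2 at 0.30 and Vamp2 at 0.25. In NAP minus PBS, 16 of the 32 lay below 0, against 45.2% of all genes, with a median of 0.0032 against 0.02, and none reached 2-fold in either direction, against 0.242% lower and 1.05% higher. Vamp2 (−0.63), Sv2a (−0.44), Sv2b (−0.43) and Amph (−0.31) were the lowest there, and Syt11 (0.58), Rab3c (0.57), Rab3b (0.36) and Stx1a (0.24) the highest. These 2 differences share no array, and across the 32 genes they correlated at Pearson r = −0.37 and Spearman rho = −0.43. Across all 9489 genes, which again covered a wider range, the values were 0.12 and 0.04.

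Set directly against the vehicle, the KA+NAP array had Sh3gl2 at −1.37, Syn2 at −1.02 and Amph 2-fold lower. No other release gene was at least 2-fold lower, against 2.11% of all genes, and none was at least 2-fold higher, against 7.41%. The interaction, the KA+NAP minus NAP difference from which KA minus PBS is subtracted, was below 0 for 21 of the 32 genes, against 49.8% of all genes, with a median of −0.15 against 0.0015. Synpr at −1.28 and Syt1 at −1.03 were past 2-fold in it, against 1.75% of all genes, and none was at least 2-fold higher, against 1.77%. Syt11 at −0.99 and Sh3gl2 at −0.97 came next, and Vamp2 at 0.88, Sv2a at 0.75, Sv2b at 0.66 and Rab3b at 0.29 were the highest.

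Other genes of the same pathways were read from lists chosen beside the members. Of 38 further release machinery genes, 30 were measured and 19 passed the filter, and 13 of these lay below 0 in each KA difference, with medians of −0.44 and −0.44. For these and the other related genes, a pair of differences gives KA+NAP minus NAP and then KA minus PBS. Over all genes past the filter, 47.3% and 47.2% lay below 0 in that order. At least 2-fold lower were 2.41% and 2.39% of all genes, and at least 2-fold higher 5.66% and 4.91%. Lin7b, an adaptor of presynaptic complexes, had 245 on the KA+NAP array, 234 on the KA array, 462 on the NAP array and 550 on the PBS array. Syt17, a distant synaptotagmin, had 441 on the KA+NAP array, 480 on the KA array, 978 on the NAP array and 908 on the PBS array. Both were near or past 2-fold lower in each KA difference, at −0.89 and −1.20 for Lin7b and −1.13 and −0.91 for Syt17. On the other side, Rab27b, a GTPase of secretory vesicles, had 451, 460, 253 and 273 on the KA+NAP, KA, NAP and PBS arrays, so both arrays with kainic acid were the higher ones. Unc13c, a priming factor related to Unc13a, was at 0.13 and 0.48. Cadps2 (−1.28) and Lin7b were at least 2-fold lower in KA minus PBS, and Syt12 (1.33) at least 2-fold higher, and Syt17 was the 1 gene of this list at least 2-fold apart in KA+NAP minus NAP.

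Vesicle filling genes comprised transmitter transporters and the proton pump that energises them. Of the 17 past the filter, 13 lay below 0 in each KA difference, with medians of −0.29 and −0.22, and none reached 2-fold. Slc17a7, the vesicular glutamate transporter of hippocampal excitatory neurons, had 506 on the KA+NAP array, 549 on the KA array, 828 on the NAP array and 817 on the PBS array. Slc32a1, the vesicular transporter of inhibitory neurons, chosen after its values were seen, had 386, 374, 359 and 421 on the KA+NAP, KA, NAP and PBS arrays. Slc17a7 was thus lower on both arrays with kainic acid, at −0.70 and −0.57, as were 28.7% of all genes. Slc32a1 was not, at 0.10 and −0.17. Other markers of inhibitory neurons were mixed. Gad1, Pvalb, Dlx1 and Calb2 were also lower on both arrays with kainic acid, and Gad2, Npy and Sst were higher on both. Of the pump subunits, Atp6v1g2 was low (−0.55 and −0.48) and Atp6v1h high (0.06 and 0.35), and the transporter Slc6a17 was at −0.11 and 0.08. Clathrin and other endocytosis genes had medians of −0.19 and −0.14, with 18 and 17 of 25 below 0. Scamp1, a vesicle trafficking protein, was at −0.63 and −0.59, and the endocytic scaffold Itsn1 at −0.55 and −0.45. Its relative Itsn2 was at 0.04 and 0.29, and the clathrin light chain gene Cltb at 0.55 and 0.26.

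Broadly expressed paralogs of the release genes lay on the other side of 0. Of 18 past the filter, 13 lay above 0 in each KA difference, with medians of 0.30 and 0.16. Scamp2, a carrier membrane protein of many cell types, had 390, 245, 179 and 178 on the KA+NAP, KA, NAP and PBS arrays. It was the 1 gene of this list past 2-fold, at 1.08 in KA+NAP minus NAP, against 5.66% of all genes. Syngr2, the synaptogyrin found outside neurons, had 302 on the KA+NAP array, 184 on the KA array, 159 on the NAP array and 116 on the PBS array. Its neuronal relative Syngr3 had differences of −0.52 and −0.42, whereas Syngr2 had 0.88 and 0.62. Vamp4, a SNARE of the trans-Golgi, and Synj2, a relative of Synj1, were the lowest of these paralogs by the mean of both differences. Vamp4 was at −0.56 and −0.24, and Synj2 at −0.23 and −0.58. Microglia and macrophage markers had medians of 0.82 and 0.13, with Cd68, Ptprc, Tyrobp and Cybb at least 2-fold higher in both differences and P2ry12 at least 2-fold lower in both, and their part in the paralog values was not tested.

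Lists of neuronal genes outside the release machinery differed among themselves. Pan-neuronal markers outside the synapse had medians of −0.32 and −0.41 over 19 genes, with 17 and 16 below 0. Nefm, a neurofilament subunit, was at −1.17 and −0.63, Elavl4, a neuronal RNA-binding protein, at −0.62 and −0.92, and Gap43, a growth cone protein, at 0.30 and 0.30. Ncam1, a neural adhesion molecule, was at −0.12 and 0.07. Postsynaptic genes had medians of −0.20 and −0.40 over 20 genes, with 15 and 16 below 0. The AMPA receptor subunit Gria2 was at −0.66 and −0.84 and the scaffold Dlg3 at −0.70 and −0.67. The kinase Camk2a was at 0.33 and 0.14 and the scaffold Homer2 at 1.18 and −0.27. The 11 CA3 pyramidal markers past the filter had medians of −0.74 and −0.56. The medians were 0.44 and −2.06 for 6 CA1 pyramidal markers, −0.67 and 0.14 for 3 dentate granule cell markers, and 0.15 and −0.06 for 11 markers of inhibitory neurons. Nothing is called particular to the release genes from these medians, since no test between lists was made.

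**Figure D5:**
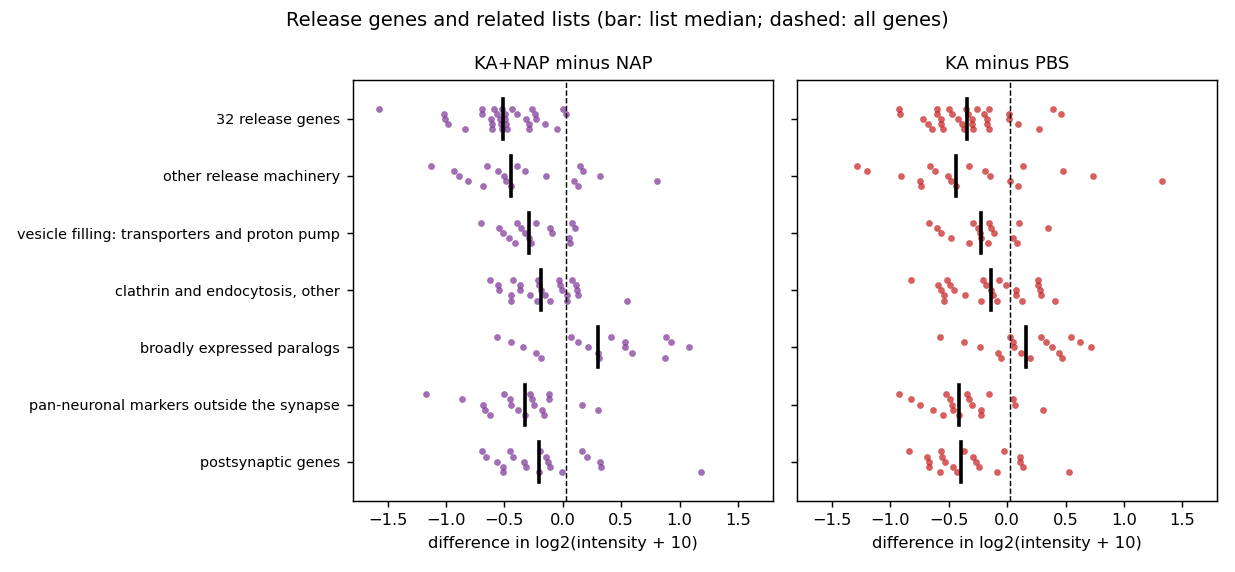
Dots are single genes past the filter in the 32 release genes and the 6 related lists, with the KA+NAP minus NAP difference in the left panel and the KA minus PBS difference in the right panel (log2(intensity + 10)). Bars give list medians and the dashed line the median of all genes past the filter. The release genes sit at −0.51 and −0.34, the broadly expressed paralogs are the 1 list with its bar right of the dashed line, at 0.30 and 0.16, and single genes overlap between lists.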

How the data were processed

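The authors deposited MAS5 signal intensities, 1 per probe set and array, for 31099 probe sets on 4 arrays. Per the labels' protocols, 500 ng of total RNA went through an Affymetrix labelling with 2 amplification cycles. As background, such labelling favours 3′ ends. MAS5 is named in the submitters' processing notes, with version and background settings not given in the sources used here. Values were kept as deposited, on a linear scale, since the trimmed mean was 250.1 on every array. The platform annotation gave 20826 probe sets 1 symbol, updated by Entrez identifier. A gene took its brightest probe set, and genes entered with a mean intensity above 62.75. Differences are of log2(intensity + 10). With 1 array per group no test was made. The code was run on simulated arrays without noise, which checks its arithmetic and cannot show the noise of single arrays. The alternatives were pseudocounts of 1 and 50, quantile normalization, median centring, averaged probe sets, other filters and the other array without KA. Genes were named with all intensities when 2-fold apart in a difference, among the 6 highest or lowest mean KA differences, among the 4 highest or lowest of the other differences, or with probe sets of opposite sign, and of each related list when 2-fold in both KA differences or among its 2 highest or lowest. Other members were given by role. Their intensities and those of Slc32a1 fall outside this rule, as do the differences of Syt12 and, among other release machinery, of Cadps2. The members and lists were chosen with earlier results of these data known. Calculations used Python 3.11.15, numpy 2.4.6 and pandas 2.3.3.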

Additional observations from a re-analysis of the deposited data

Results flagged for a closer look

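For 7 release genes the difference made by kainic acid had opposite signs with and without NAP, and the contrast between the 2 differences was not tested, since each rests on single arrays. Opposite signs occurred for 28.1% of all genes past the filter. The contrast, in which KA minus PBS is subtracted from KA+NAP minus NAP, was −1.28 for Synpr, −1.03 for Syt1, −0.99 for Syt11, −0.93 for Stx1a, −0.87 for Rab3c, −0.55 for Snap91 and 0.75 for Sv2a. The KA+NAP minus NAP differences behind the 6 negative contrasts lay between −1.02 and −0.48. Several signs rested on values near 0, with KA minus PBS at 0.01 for Syt1 and Snap91, and KA+NAP minus NAP at 0.03 for Sv2a. With median centring these were −0.05 for Syt1, −0.05 for Snap91 and −0.03 for Sv2a, so the signs no longer differed. With all probe sets averaged, KA minus PBS was −0.23 for Stx1a. When the NAP array replaced the PBS array, the KA difference was −0.22 for Syt1, −0.15 for Stx1a, −0.11 for Syt11, −0.17 for Rab3c and −0.16 for Snap91, and Synpr kept a positive one at 0.06.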

How the results depend on the processing

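With 1 array per group, no result has a replicate error, and detection calls were not used. No paired analysis was possible because each group had 1 array. The release gene medians kept their sign in both KA differences, in KA+NAP minus KA and in the interaction under each alternative run. The interaction median was −0.25 with probe sets past the filter averaged. The NAP minus PBS median, 0.0032, was −0.079 above the 75th percentile of intensity and −0.034 with median centring. The stricter filter left 23 release genes, with 15 below 0 in KA+NAP minus KA and 13 in the interaction. With a pseudocount of 50, 1 gene was at least 2-fold lower in KA+NAP minus NAP and 1 in the interaction, and with a pseudocount of 1 the interaction had 4. Without a filter, 1 dim gene (Sv2c) was past 2-fold upward in KA minus PBS, and 1 (Syt7) was past it downward in NAP minus PBS and, as the 1 gene, upward in the interaction. For the related lists, the KA minus PBS medians became 0.055 for paralogs and −0.27 for other release machinery without a filter, −0.019 for clathrin genes and −0.087 for vesicle filling genes with quantile normalization, and −0.29 for postsynaptic genes with all probe sets averaged. The KA+NAP minus NAP medians became −0.33 for other release machinery without a filter, and −0.32 with the 75th percentile filter and −0.082 with all probe sets averaged for postsynaptic genes. When NAP replaced PBS under KA, the dense-core vesicle median was 0.12. Counting each difference of each named gene once per alternative, 719 values moved by less than 0.1 and 133 by more. None that was past 2-fold changed sign. The 719 include values that could not move. The other filters leave a gene's value as it is, as does averaging for a gene with 1 probe set. In KA+NAP minus NAP, Sh3gl2 fell short of 2-fold with all probe sets averaged (−0.66, with NAP minus PBS then −0.25 against 0.20). Synpr did with a pseudocount of 50 (−0.98) and quantile normalization (−0.98), Syt1 with a pseudocount of 50 (−0.92), and both when PBS replaced NAP (−0.80 and −0.78). No array could be left out.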

Other observations

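Dense-core vesicles carry neuropeptides and share priming factors with synaptic vesicles. A list of 16 of their genes was added after the data had been seen, and 13 passed the filter. Its medians were −0.32 in KA+NAP minus NAP and −0.12 in KA minus PBS. Below 0 were 9 and 8 of the 13, against 47.3% and 47.2% of all genes. Vgf, a secreted neuropeptide precursor, had an intensity of 956 on the KA+NAP array, 1161 on the KA array, 326 on the NAP array and 460 on the PBS array. It was the 1 gene of the list at least 2-fold higher in both KA differences, at 1.52 with and 1.32 without NAP. Scg5, a chaperone of prohormone convertase 2, had 4093 on the KA+NAP array, 4124 on the KA array, 5804 on the NAP array and 5865 on the PBS array. Cadps2, a relative of Cadps that is also on the list of other release machinery, had 399 on the KA+NAP array, 268 on the KA array, 647 on the NAP array and 666 on the PBS array. For Scg5 and Cadps2 both arrays with kainic acid were the lower ones, and for Vgf both were the higher ones. Ptprn, a dense-core vesicle membrane protein, was at 0.24 with and 0.40 without NAP.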
